A study of Homo sapiens with 9 samples.

Results

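A set of 10 genes of nerve and muscle biology were followed by name across a metastatic breast cancer line and a pair of JAG1 knockout clones made from it. They are CNTN1, PCSK1N, PTCHD1, SCG2, POU3F2, VIPR1, CNKSR2, DMD, MUSK and EYA1, and they make up 10 of the 56505 genes in the deposited tables. They were picked by name because earlier results of these data showed large differences between the clones or against wild type, so their differences are described here and not tested. The name under which they were grouped, genes switched between clones, held in part. CNTN1, PCSK1N and PTCHD1 were at or near 0 in clone 1 alone and DMD and EYA1 in clone 2 alone, CNKSR2 and MUSK were higher in clone 2, and SCG2, POU3F2 and VIPR1 were lower than wild type in both clones.

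The cells were MDA-MB-231-D3H2LN, which derives from MDA-MB-231, a triple-negative breast cancer line, and were profiled by bulk RNA sequencing with 3 libraries in each of 3 groups. Wild-type cells, the controls, expressed JAG1, a ligand of Notch receptors. Clone 1 and clone 2 were each grown from a single cell after Cas9 protein carrying guide RNAs to a pair of places in a single JAG1 exon had been put into the parental cells, and the labels describe both as homozygous knockouts. Each clone is therefore 1 line, so that a trait of its founding cell and an effect of the JAG1 edit cannot be told apart, and no label says that the libraries of a group came from separate cultures.

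These genes work mainly in neurons, endocrine cells and muscle. Neurons and endocrine cells load peptides into dense-core granules, attach to each other through contactins and their partners, and carry receptors for the released peptides. In muscle, dystrophin ties the actin cytoskeleton to the membrane and the receptor kinase MuSK organises the synapse with the motor nerve. Breast epithelium is not the main site of any of these systems, although cancer cell lines often transcribe single genes of them.

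The libraries held 16890890 to 22456164 counts, and all 10 genes were among the 16921 that passed the filter on low counts. Levels are given as CPM, counts scaled to the size of the library, after TMM scaling. JAG1 stood at 196 ± 44.7, 94.5 ± 14.9 and 66.9 ± 9.87 CPM in wild type, clone 1 and clone 2 (SD, n = 3 each), so JAG1 transcripts were still counted in both clones. VIM and CD44, which MDA-MB-231 cells express strongly, stood at 1218 and 1079 CPM in wild type, and CDH1, the epithelial cadherin they lack, stood at 0.500 CPM. Of the receptors whose low level defines a triple-negative tumour, ESR1 stood at 0.515 CPM, PGR at 0.176 CPM and ERBB2 at 90.5 CPM.

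Promoters are shown for 4 of the genes, 1 for each pattern that follows: a gene lost in clone 1, a gene lost in clone 2, a gene low in both clones and a gene high in clone 2. RefSeq promoters on GRCh38.p14, 250 bases before to 50 bases after the annotated start, matched 7 of the 10 by symbol, leaving SCG2, PTCHD1 and EYA1 named only. The sequences run 5′ to 3′ on the gene's strand, and capitals mark every CG dinucleotide, the site of DNA methylation in vertebrates.
PCSK1N, chrX:48835561-48835860, minus strand: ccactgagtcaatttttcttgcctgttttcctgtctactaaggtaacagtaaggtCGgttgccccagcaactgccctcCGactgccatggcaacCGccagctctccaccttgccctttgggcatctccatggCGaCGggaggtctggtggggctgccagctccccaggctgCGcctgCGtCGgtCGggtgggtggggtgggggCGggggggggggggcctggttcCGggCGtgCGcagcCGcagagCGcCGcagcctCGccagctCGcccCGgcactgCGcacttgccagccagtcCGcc
DMD, chrX:33339339-33339638, minus strand: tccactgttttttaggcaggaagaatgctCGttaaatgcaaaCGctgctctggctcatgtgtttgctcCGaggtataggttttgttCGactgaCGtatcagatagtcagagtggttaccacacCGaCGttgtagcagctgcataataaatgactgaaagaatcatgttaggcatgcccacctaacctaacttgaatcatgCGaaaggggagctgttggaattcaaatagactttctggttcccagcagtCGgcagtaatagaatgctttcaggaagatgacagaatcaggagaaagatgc
POU3F2, chr6:98834324-98834623, plus strand: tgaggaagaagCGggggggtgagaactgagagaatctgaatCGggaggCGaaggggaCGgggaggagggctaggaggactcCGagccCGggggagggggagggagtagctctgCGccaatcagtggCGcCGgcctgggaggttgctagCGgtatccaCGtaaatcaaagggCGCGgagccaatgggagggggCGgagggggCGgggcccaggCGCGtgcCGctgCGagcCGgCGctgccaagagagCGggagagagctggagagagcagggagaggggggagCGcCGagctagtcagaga
CNKSR2, chrX:21374168-21374467, plus strand: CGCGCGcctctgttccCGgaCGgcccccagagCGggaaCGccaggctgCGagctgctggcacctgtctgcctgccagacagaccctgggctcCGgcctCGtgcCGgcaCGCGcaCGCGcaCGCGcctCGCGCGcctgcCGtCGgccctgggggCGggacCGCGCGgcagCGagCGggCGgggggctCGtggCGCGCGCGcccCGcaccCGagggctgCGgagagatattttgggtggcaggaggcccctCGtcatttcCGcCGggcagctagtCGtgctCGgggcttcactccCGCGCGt
The 4 windows differed in the number of these sites. PCSK1N held 21 CG dinucleotides, DMD 9, POU3F2 24 and CNKSR2 45, against quartiles of 17, 26 and 34 over the 10977 tested genes that have a promoter entry. CNKSR2 had more than 94.3% of those genes, while VIPR1 and MUSK had 3 each and CNTN1 had 6. The CNTN1 window belongs to a start that lies 135742 bases inside the gene as the authors' table places it. Each window covers 1 annotated start of its gene, and counts per gene do not show which start was used.

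Short motifs were searched on both strands of the windows, and a match is a description only. TGGGAA occurred in VIPR1, DMD and MUSK, in 24.3% of all promoters of this length and in 21.7% of those of tested genes. TATAAA occurred in VIPR1, in 12% of all promoters and in 5.86% of those of tested genes. CANNTG, the E-box read by muscle and neural basic helix-loop-helix factors, occurred in PCSK1N, VIPR1, DMD, MUSK and CNKSR2. It was in 68.9% of all promoters and 60.8% of those of tested genes. ATGCAAAT, TGACGTCA and TTCAGCACC were not in the 7 windows. They occurred in 1.8%, 1.98% and 0.403% of all promoters and in 1.28%, 3.09% and 0.246% of those of tested genes. The first is the octamer of POU factors, the second the cyclic AMP response element and the last the first part of the REST site.

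Per transcript length, the wild-type level was highest for PCSK1N at 13.4 ± 2.41 RPKM (reads scaled by library and by transcript length; SD, n = 3). SCG2 at 4.14 ± 0.899, VIPR1 at 3.56 ± 1.41 and CNTN1 at 2.30 ± 0.690 followed on this RPKM scale. SCG2 and VIPR1 lay within each other's spread, as did VIPR1 and CNTN1. POU3F2 at 1.22 ± 0.398 and EYA1 at 1.09 ± 0.349 also could not be ordered beyond their spread. MUSK at 0.567 ± 0.383, CNKSR2 at 0.433 ± 0.122, PTCHD1 at 0.347 ± 0.0701 and DMD at 0.323 ± 0.0604 were lowest, and these 4 levels overlapped.

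Against wild type, 6 of the 10 genes in clone 1 had all 3 libraries below all wild-type libraries and 0 had all above, where 29.6% of all tested genes had groups that did not overlap, 13.1% higher and 16.5% lower. In clone 2, 4 genes lay wholly above wild type and 5 wholly below, where 25.9% of tested genes did not overlap, 14.2% above and 11.7% below. Between the clones, clone 2 lay wholly above clone 1 for 5 genes and wholly below for 3, where 47.4% of tested genes did not overlap, 25.8% above and 21.6% below. Nothing is read from these counts, because the same contrasts chose the genes. Both comparisons with wild type use the same 3 wild-type libraries.

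**Figure D1:**
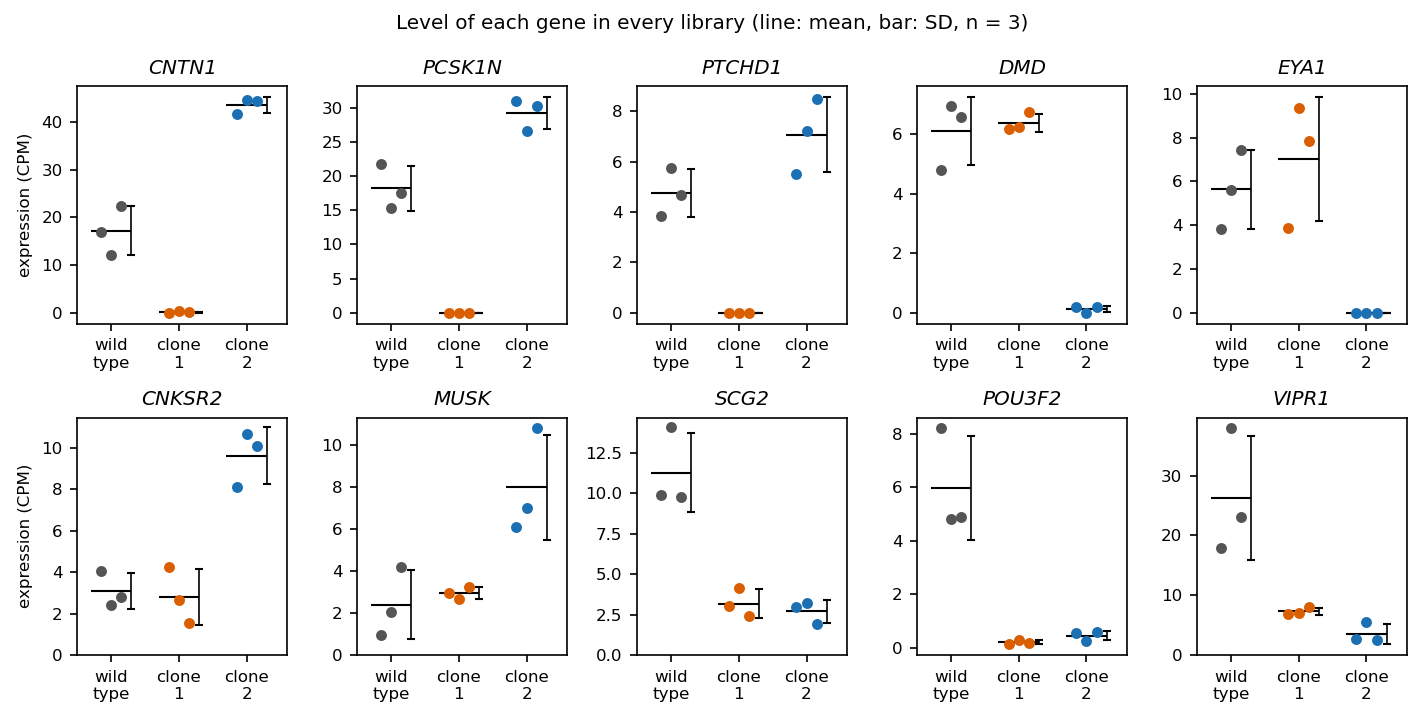
Level of the 10 genes in each of the 9 libraries, as TMM-scaled CPM on a linear axis of its own for each gene, with 1 point per library, a line at the group mean and a bar of 1 SD to each side (n = 3). CNTN1, PCSK1N and PTCHD1 fall to or near 0 in clone 1, DMD and EYA1 fall to or near 0 in clone 2, and SCG2, POU3F2 and VIPR1 are low in both.

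CNTN1, PCSK1N and PTCHD1 shared a pattern of loss in clone 1 with levels at or above wild type in clone 2. PCSK1N encodes proSAAS, an inhibitor of the prohormone convertase that cuts peptide precursors in secretory granules. It lies on the minus strand at chrX:48831094-48835633 (GRCh38), and its promoter is the first one shown. Its counts were 449, 363 and 349 in the wild-type libraries, 0, 0 and 0 in clone 1, and 501, 550 and 637 in clone 2. The 3 groups did not overlap, with clone 1 empty and clone 2 above wild type. The means of wild type and clone 2 were 18.2 ± 3.28 and 29.3 ± 2.33 CPM (SD, n = 3 each), which is 1.61-fold higher in clone 2. A count of 0 was set at a floor of 3 counts over the clone 1 libraries, or 0.0515 CPM, and against that floor PCSK1N was at least 354-fold lower in clone 1 than in wild type and at least 569-fold lower than in clone 2. Such floors cover counting error only, and in bulk RNA a smaller number of expressing cells and less RNA per cell cannot be told apart.

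CNTN1 encodes contactin 1, a membrane-anchored adhesion molecule of axons, at chr12:40692442-41072418 on the plus strand. Its counts were 350, 287 and 447 in wild type, 1, 6 and 2 in clone 1, and 673, 923 and 937 in clone 2. Clone 1 was almost empty and clone 2 lay wholly above wild type. The means were 17.2 ± 5.17, 0.149 ± 0.121 and 43.6 ± 1.71 CPM in wild type, clone 1 and clone 2 (SD, n = 3 each). CNTN1 was thus 115-fold lower in clone 1 than in wild type (log2 fold change -6.75, SE 0.37) and 2.53-fold higher in clone 2 (1.34, SE 0.22). Clone 2 was 292-fold higher than clone 1. The 9 counts in clone 1 give a 95% Poisson interval of 0.0706 to 0.293 CPM. Clone 1 replicate 2 held most of them, and without that library the log2 fold change between clone 1 and wild type was -7.61.

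PTCHD1 encodes a membrane protein with a patched-type domain that is found at synapses and is linked to autism and intellectual disability. The gene lies at chrX:23334016-23404372 on the plus strand. Its counts were 79, 136 and 93 in wild type, 0, 0 and 0 in clone 1, and 89, 149 and 179 in clone 2. Here clone 2 overlapped wild type, at 7.07 ± 1.5 against 4.76 ± 0.961 CPM (SD, n = 3 each), so the 1.49-fold higher mean lies within the spread of the libraries. With the floor of 3 counts over the group, clone 1 was at least 92.4-fold lower than wild type and at least 137-fold lower than clone 2.

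DMD and EYA1 showed the mirror image, with clone 1 close to wild type and clone 2 at or near 0. DMD encodes dystrophin, the cytoskeletal link of the muscle membrane, and spans chrX:31097677-33339441 on the minus strand. The second promoter shown belongs to a start 53 bases from the upstream end of this span, and whether these cells use that start was not tested. Its counts were 99, 164 and 131 in wild type, 119, 131 and 121 in clone 1, and 3, 0 and 4 in clone 2. Wild type at 6.11 ± 1.14 CPM and clone 1 at 6.38 ± 0.315 overlapped, while clone 2 at 0.125 ± 0.108 lay far below both (SD, n = 3 each). DMD was 48.9-fold lower in clone 2 than in wild type (log2 fold change -5.58, SE 0.49) and 51.0-fold lower than in clone 1. The 7 counts in clone 2 give a 95% Poisson interval of 0.0486 to 0.249 CPM, and without clone 2 replicate 2, the library with none, the log2 fold change against wild type was -4.99.

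EYA1 encodes a transcriptional co-activator with a phosphatase domain that acts with sine oculis homeobox factors in ear, kidney and muscle development. It lies on chromosome 8, from 71197433 to 71362232 on the minus strand. The counts were 79, 133 and 148 in wild type, 75, 197 and 141 in clone 1, and 0, 0 and 0 in clone 2. Wild type at 5.64 ± 1.80 CPM and clone 1 at 7.04 ± 2.83 overlapped (SD, n = 3 each). The floor of 3 counts over the clone 2 libraries is 0.0518 CPM. Against it EYA1 was at least 109-fold lower in clone 2 than in wild type and at least 136-fold lower than in clone 1.

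CNKSR2 and MUSK stood higher in clone 2 than in the other groups and were lost in neither clone. CNKSR2 encodes a scaffold of the postsynaptic density that links receptors to RAS-MAPK signalling, at chrX:21374418-21654695 on the plus strand; its promoter is the last one shown. Its counts were 84, 57 and 56 in wild type, 82, 56 and 28 in clone 1, and 131, 221 and 213 in clone 2. Wild type at 3.10 ± 0.871 CPM and clone 1 at 2.82 ± 1.35 overlapped, and every clone 2 library lay above both, at 9.64 ± 1.36 (SD, n = 3 each). Clone 2 was 3.11-fold higher than wild type (log2 fold change 1.64, SE 0.33) and 3.41-fold higher than clone 1 (1.77, SE 0.33).

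MUSK encodes the muscle-specific receptor kinase that gathers acetylcholine receptors under the motor nerve ending, at chr9:110668771-110801620 on the plus strand. Its counts were 20, 49 and 83 in wild type, 57, 56 and 58 in clone 1, and 99, 145 and 228 in clone 2. Wild type varied widely at 2.41 ± 1.63 CPM and enclosed clone 1 at 2.95 ± 0.284, and clone 2 lay above both at 7.99 ± 2.49 (SD, n = 3 each). Clone 2 was 3.32-fold higher than wild type (log2 fold change 1.74, SE 0.40) and 2.71-fold higher than clone 1. Without wild-type replicate 3, which has the highest wild-type count, the log2 fold change against wild type was 2.36.

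SCG2, POU3F2 and VIPR1 were lower than wild type in both clones. SCG2 encodes secretogranin II, a granin stored in dense-core granules and cut into the peptide secretoneurin, at chr2:223596940-223602503 on the minus strand. Its counts were 204, 333 and 195 in wild type, 58, 87 and 43 in clone 1, and 48, 67 and 40 in clone 2. Wild type stood at 11.3 ± 2.44 CPM, clone 1 at 3.18 ± 0.884 and clone 2 at 2.70 ± 0.711 (SD, n = 3 each). The wild-type libraries lay above all 6 clone libraries, and the clones overlapped each other. SCG2 was 3.55-fold lower in clone 1 (log2 fold change -1.82, SE 0.29) and 4.17-fold lower in clone 2 (-2.06, SE 0.30).

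POU3F2, also called BRN2, encodes a POU-domain transcription factor of neural progenitors and melanoma cells, at chr6:98834592-98839470 on the plus strand; its promoter is the third one shown. Its counts were 169, 114 and 97 in wild type, 3, 6 and 3 in clone 1, and 9, 5 and 12 in clone 2. The means were 5.97 ± 1.94, 0.203 ± 0.0719 and 0.456 ± 0.185 CPM in the same order (SD, n = 3 each). That is 29.5-fold lower in clone 1 (log2 fold change -4.82, SE 0.49) and 13.1-fold lower in clone 2 (-3.70, SE 0.45), and the clones overlapped. The 95% Poisson intervals of the summed counts were 0.106 to 0.360 CPM in clone 1 and 0.293 to 0.658 CPM in clone 2.

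VIPR1 encodes a class B receptor for vasoactive intestinal peptide, a gut and nerve hormone, at chr3:42489299-42537573 on the plus strand. Its counts were 367, 896 and 459 in wild type, 133, 149 and 144 in clone 1, and 43, 114 and 54 in clone 2. Wild type was spread over 26.3 ± 10.4 CPM, and the clones stood at 7.33 ± 0.604 and 3.58 ± 1.68 (SD, n = 3 each). VIPR1 was the only 1 of these 3 genes whose clones did not overlap, clone 2 being 2.05-fold lower than clone 1. Against wild type it was 3.58-fold lower in clone 1 (log2 fold change -1.84, SE 0.30) and 7.34-fold lower in clone 2 (-2.87, SE 0.32). An antisense gene, VIPR1-AS1, overlaps it and summed to 98, 38 and 19 counts in wild type, clone 1 and clone 2. The strand setting of the counting was not given in the sources used here, and reads of the pair may not be separated. VIPR1-AS1 itself did not pass the test in clone 1 (edgeR quasi-likelihood test, log2 fold change -1.17, adjusted p = 0.352) or in clone 2 (-2.21, adjusted p = 0.0919, and 0.0331 with the replicate number as a block).

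**Figure D2:**
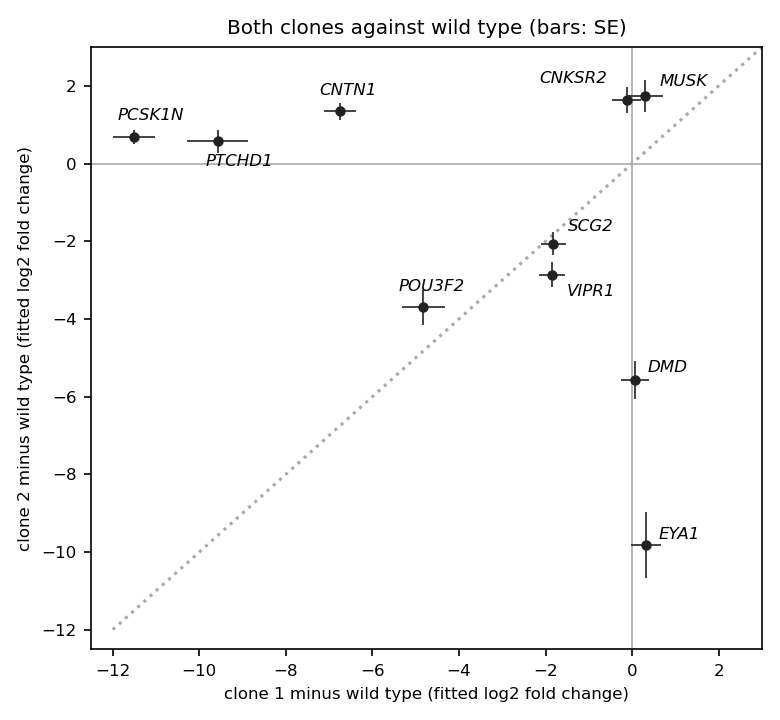
Fitted log2 fold change against wild type in clone 1 (horizontal axis) and clone 2 (vertical axis) for the 10 genes, with bars of 1 SE and a dotted line where both are equal. Each SE is the size of the fold change divided by the square root of the F statistic of the edgeR fit. CNTN1, PCSK1N and PTCHD1 lie far to the left, DMD and EYA1 far down, and POU3F2 to the lower left. Positions and bars of PCSK1N, PTCHD1 and EYA1 depend on the prior count, because a group is at 0, so their bars do not measure precision. Both axes share the wild-type libraries.

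A log2 fold change beyond 3 in either direction was reached in some comparison by CNTN1, PCSK1N, PTCHD1, DMD, EYA1 and POU3F2, and by none of SCG2, VIPR1, CNKSR2 and MUSK. Groups that did not overlap with a fitted log2 fold change under -3 were found for 96 genes in clone 1 against wild type (0.567% of those tested), for 127 in clone 2 against wild type (0.751%) and for 128 in clone 2 against clone 1 (0.756%). In the other direction, over 3, there were 10 genes in clone 1 (0.0591%), 2 in clone 2 (0.0118%) and 55 between the clones (0.325%). The median log2 fold change over all tested genes was -0.02, 0.00 and -0.01 in these comparisons.

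Across the 9 libraries, which share their groups and therefore rise and fall together, PCSK1N and PTCHD1 had a Pearson correlation of 0.995 on log2 CPM. CNTN1 correlated with PCSK1N at 0.989 and with PTCHD1 at 0.985. DMD and EYA1 correlated at 0.978, and VIPR1 and SCG2 at 0.918. CNKSR2 ran opposite to EYA1 at -0.936 and to DMD at -0.914. These values restate the group patterns and carry no test.

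The tested genes most like each member over the same 9 libraries came from many families. For CNTN1 they were CNNM1 (r = 0.995) and DOK6 (r = 0.992). CNNM1, a CNNM-family membrane protein, had levels of 12.3 ± 2.71, 0.183 ± 0.130 and 30.6 ± 7.59 CPM across wild type, clone 1 and clone 2 (SD, n = 3 each). DOK6, an adaptor of receptor kinases, had 79, 0 and 162 counts in the 3 groups. For PTCHD1 the nearest were TRABD2B (r = 0.996), with 89, 0 and 153 counts, and PCSK1N; for PCSK1N they were PTCHD1 and PYGB, the brain-type glycogen phosphorylase (r = 0.995), which kept 59.5 ± 4.99 CPM in clone 1 against 174 ± 11.2 in wild type. For EYA1 the most alike were LINC00989 (r = 0.990), with 184, 160 and 0 counts, and ZNF681 (r = 0.985). For DMD they were PCDHB2 (r = 0.985) and EFS (r = 0.981), and EFS had 53, 49 and 0 counts.

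SCG2 was most like APOL1 (r = 0.985) and FSTL5 (r = 0.952), a gene with 289 counts in wild type and 0 in both clones. POU3F2 was most like HIST1H2BK (r = 0.980) and KIAA1841 (r = 0.971). VIPR1 was most like LAMA5 (r = 0.964), a laminin chain, and TNFSF10 (r = 0.963), the death ligand TRAIL. MUSK was most like DNMBP (r = 0.969) and CLOCK (r = 0.967), and CNKSR2 most like CCDC137 (r = 0.990) and GSG2 (r = 0.972). These genes were found by their pattern, so their levels are a description as well.

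The other genes of the same systems were taken from 9 lists, which hold 196 genes besides the members. Of these, 23 had no count in the 9 libraries and 119 were tested. In clone 1 against wild type 4 were higher and 9 lower (edgeR quasi-likelihood test, adjusted p under 0.05), or 10.9% of those tested; of all tested genes 5.51% were called, 1.41% higher and 4.1% lower. The lists had a median log2 fold change of -0.11. In clone 2 against wild type 7 were higher and 4 lower, or 9.24%, against 5.96% of all tested genes (3.21% higher and 2.75% lower), with a median of -0.02; with the replicate number as a block these counts were 13 and 9, where 16% of all tested genes were called. Clone 2 exceeded clone 1 for 26 and lay below it for 13, or 32.8%, against 33.9% of all tested genes (19.8% above and 14.1% below), with a median of 0.18. No set test was run, and calls rest on the spread between 3 libraries of a line. The lists were chosen with earlier results of these data known, so nothing is read from their shares beside those of all tested genes.

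**Figure D3:**
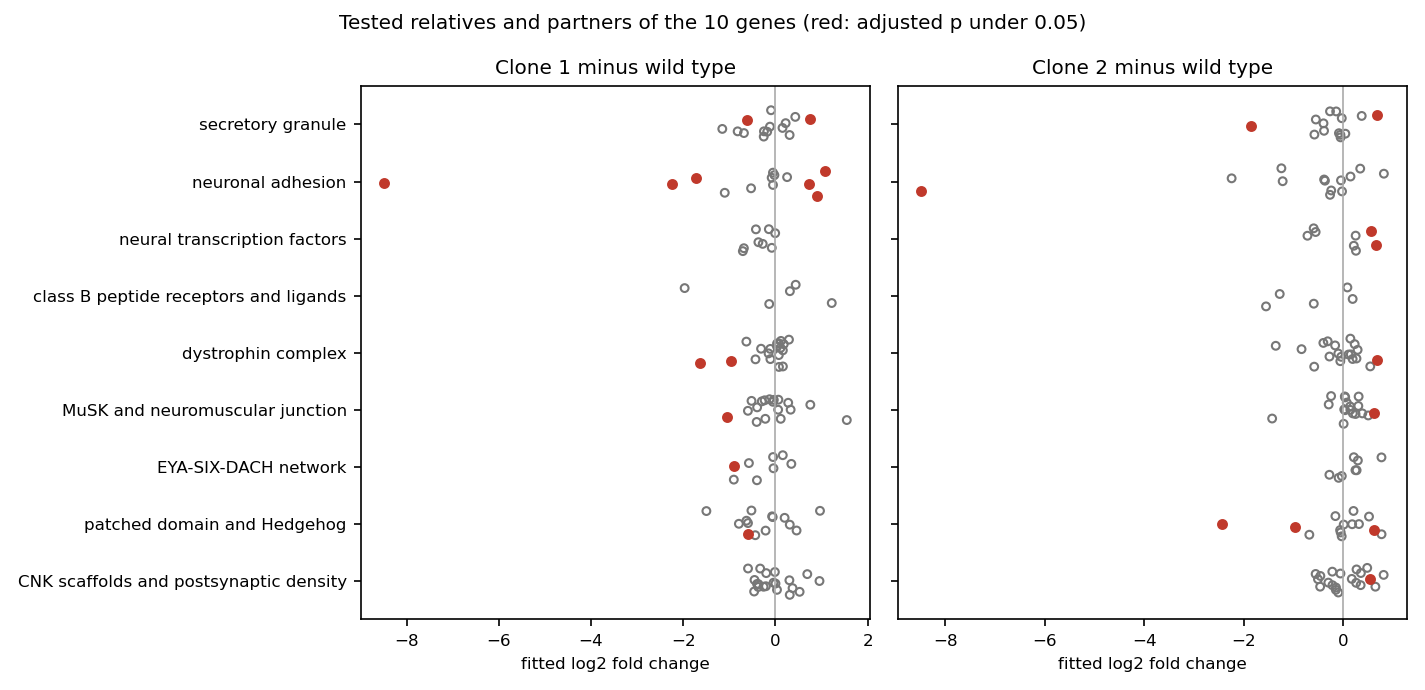
Log2 fold change against wild type of the tested genes in each of the 9 related lists, for clone 1 and clone 2, with 1 point per gene and filled red points for those called at an adjusted p under 0.05. Most points lie near 0, and NRXN3, with 0 counts in both clones, lies farthest down in the neuronal adhesion list at a position that depends on the prior count.

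Among the granule genes, 14 of 25 were tested; 1 was higher and 1 lower in clone 1 (median -0.15), and 1 was higher and 1 lower in clone 2 (median -0.11; 2 and 2 with the replicate block). The other granins were scarce or did not pass: CHGA stood at 0.208 CPM in wild type, CHGB at 0.0486, and SCG3 had no count in wild type or clone 1. VGF stood at 3.80, 4.42 and 3.75 CPM in the 3 groups. SCG5, the chaperone of a second convertase, varied widely, at 12.1 ± 9.30, 5.44 ± 4.12 and 8.25 ± 8.97 CPM across the groups (SD, n = 3 each), with adjusted p = 0.486 and 0.737 against wild type by edgeR, and 0.0101 and 0.0388 with the replicate number as a block. RAB27B, a GTPase that docks granules at the membrane, fell in clone 2 from 12.3 ± 1.55 to 3.41 ± 0.364 CPM (SD, n = 3; log2 fold change -1.86, SE 0.23, edgeR adjusted p = 0.000221).

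DNAJC5, the cysteine-string protein of secretory vesicles, fell in clone 1 (log2 fold change -0.62, SE 0.15, edgeR adjusted p = 0.0300) and rose in clone 2 (0.68, SE 0.15, adjusted p = 0.0185). The first call ended on removal of wild-type replicate 2 or 3 or any 1 clone 1 library (adjusted p up to 0.180), and the second on removal of wild-type replicate 1 or 2 or clone 2 replicate 3 (up to 0.103) and in a fit of the 6 libraries compared (0.0601). The clone 2 call was kept with the replicate block (edgeR adjusted p = 0.00149). STX1A, the syntaxin of vesicle fusion, rose in clone 1 by 0.75 (SE 0.18, adjusted p = 0.0243), a call ended on removal of wild-type replicate 3 or any 1 clone 1 library (up to 0.109).

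Of 25 adhesion genes of the contactin, neurexin and neuroligin families, 13 were tested; 3 rose and 3 fell in clone 1 (median -0.05), and 0 rose and 1 fell in clone 2 (median -0.26; 1 and 1 with the replicate block). Most of the other contactins were near silent. CNTN3 had no count, CNTN2, CNTN4 and CNTN6 stood at 0.130 CPM or less in wild type, and CNTN5 fell in clone 1 from 2.21 ± 0.514 to 0.466 ± 0.151 CPM (SD, n = 3; log2 fold change -2.24, SE 0.57, edgeR adjusted p = 0.0325) and stood at 0.925 ± 0.622 in clone 2. That call ended on removal of wild-type replicate 2 or 3 or any 1 clone 1 library (adjusted p up to 0.112). NRCAM, an adhesion molecule of axons, fell in clone 1 from 22.5 ± 1.91 to 6.75 ± 1.86 CPM (SD, n = 3; -1.73, SE 0.20, adjusted p = 0.000120) and stood at 18.7 ± 2.26 in clone 2, where it did not pass (adjusted p = 0.444).

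NRXN3, a presynaptic adhesion receptor, had 143 counts in wild type and 0 in both clones, which makes it at least 43.2-fold lower in clone 1 (edgeR adjusted p = 0.00131) and at least 42.9-fold lower in clone 2 (0.00134). It was singled out after its values were seen, as were CNTNAP1 and NLGN1. CNTNAP1 (log2 fold change 0.89, adjusted p = 0.0370), CNTNAP3 (0.73, 0.0405) and NLGN1 (1.06, 0.0424) rose in clone 1. The CNTNAP1 call ended on removal of any 1 wild-type or clone 1 library (adjusted p up to 0.171), that of CNTNAP3 on removal of wild-type replicate 1 or 3 or any 1 clone 1 library (up to 0.176), and that of NLGN1 on removal of any 1 wild-type library or clone 1 replicate 2 or 3 (up to 0.206). CNTNAP2 did not pass against wild type in clone 2 (0.82, adjusted p = 0.0669, and 0.0348 with the replicate block).

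Among 21 neural transcription factors and their repressors, 8 were tested; none was called in clone 1 (median -0.32; 2 at an unadjusted p under 0.05 and 0 by DESeq2), and 2 rose and 0 fell in clone 2 (median 0.24; 2 and 1 with the replicate block). The paralogs of POU3F2 were near silent, with POU3F1 at 0.0282 CPM in wild type and POU3F3 and POU3F4 with no count there. REST, a repressor that keeps neuronal genes off outside the nervous system, rose in clone 2 from 33.7 ± 6.35 to 53.7 ± 5.56 CPM (SD, n = 3; log2 fold change 0.67, SE 0.16, edgeR adjusted p = 0.0253), and its partner RCOR1 rose by 0.57 (SE 0.15, adjusted p = 0.0382). The REST call ended on removal of wild-type replicate 1 or 2 or clone 2 replicate 2 or 3 (adjusted p up to 0.125) and in a fit of the 6 libraries compared (0.0585). The RCOR1 call ended on removal of any 1 library other than wild-type replicate 3 and clone 2 replicate 1 (up to 0.179) and in the fit of the 6 libraries (0.0906). Both calls were kept with the replicate number as a block (edgeR adjusted p = 0.00282 for REST and 0.00445 for RCOR1). In clone 1 the values were -0.37 for REST (adjusted p = 0.193) and -0.28 for RCOR1 (0.306), which did not pass.

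Class B peptide receptors and their ligands mostly fell under the count filter beside VIPR1: 5 of 19 were tested, and edgeR called none against wild type in either clone (medians 0.31 in clone 1 and -0.59 in clone 2). At an unadjusted p under 0.05 there was 1 in each clone, DESeq2 called 0 in clone 1 and 1 in clone 2, and with the replicate block 1 fell in clone 2. VIPR2 had no count in wild type, and ADCYAP1R1, the receptor of the related peptide PACAP, stood at 0.402, 0.474 and 0.116 CPM. GIPR, the receptor of an incretin hormone, stood at 0.623 ± 0.170 CPM in clone 2 against 1.85 ± 0.659 in wild type (SD, n = 3; edgeR adjusted p = 0.0558, and 0.0273 with the replicate block).

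In the dystrophin complex, 19 of 26 genes were tested; 0 rose and 2 fell in clone 1 (median 0.03), and 1 rose and 0 fell in clone 2 (median -0.04; 2 and 1 with the replicate block), where DMD itself was near 0. UTRN, the dystrophin paralog utrophin, stood at 39.6 ± 10.2, 29.3 ± 5.28 and 45.3 ± 12.6 CPM across the groups (SD, n = 3 each) and did not pass against wild type (edgeR adjusted p = 0.265 and 0.628). DRP2, another paralog, stood at 3.26 ± 0.847, 3.44 ± 1.14 and 1.28 ± 0.416 CPM, with adjusted p = 0.0533 in clone 2 and 0.0215 with the replicate block. DTNA, alpha-dystrobrevin, fell in clone 1 (log2 fold change -1.63, SE 0.30, adjusted p = 0.00644). SNTB2, a syntrophin, rose in clone 2 by 0.68 (SE 0.14, adjusted p = 0.0105; ended on removal of wild-type replicate 1 or 2 or clone 2 replicate 3, up to 0.0701). The replicate block kept that call (edgeR adjusted p = 0.000741).

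Around MUSK, 18 of 22 genes of the neuromuscular junction were tested; 0 rose and 1 fell in clone 1 (median -0.09), and 1 rose and 0 fell in clone 2 (median 0.11; 2 and 0 with the replicate block). ROR2, a receptor kinase related to MUSK, fell in clone 1 from 8.17 ± 2.36 to 3.92 ± 0.558 CPM (SD, n = 3; log2 fold change -1.06, SE 0.25, edgeR adjusted p = 0.0257), a call ended on removal of wild-type replicate 1 or 3 or clone 1 replicate 2 or 3 (up to 0.118). ROR1, its close relative, did not pass in clone 1 (-0.40, adjusted p = 0.157) or clone 2 (0.04, 0.912). CHRNB1, a subunit of the muscle acetylcholine receptor that MUSK gathers, rose in clone 2 by 0.63 (SE 0.17, adjusted p = 0.0355; chosen after its values were seen). That call ended on removal of wild-type replicate 1 or 2, clone 1 replicate 2 or 3, or clone 2 replicate 1 or 3 (up to 0.188) and in a fit of the 6 libraries compared (0.0877). The replicate block kept it (edgeR adjusted p = 0.00168).

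For EYA1, 8 of 16 genes of the retinal determination network, its relatives and partners, were tested; 0 rose and 1 fell in clone 1 (median -0.23), and none was called in clone 2 (median 0.24; 0 at an unadjusted p under 0.05 and 0 by DESeq2), where EYA1 itself had no count. EYA3 stood at 30.8 ± 5.03, 39.1 ± 8.72 and 35.9 ± 3.27 CPM and EYA4 at 20.4 ± 2.79, 22.8 ± 2.08 and 19.2 ± 1.66 (SD, n = 3 each), and neither passed against wild type, while EYA2 had 1, 0 and 6 counts. SIX2, a partner factor, fell in clone 1 (log2 fold change -0.90, SE 0.24, edgeR adjusted p = 0.0379; ended on removal of wild-type replicate 2 or 3 or any 1 clone 1 library, up to 0.154).

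The patched-domain and Hedgehog genes around PTCHD1 had 14 of 20 tested; 0 rose and 1 fell in clone 1 (median -0.33), and 1 rose and 2 fell in clone 2 (median 0.00; 3 and 2 with the replicate block). PTCHD3 had no count, PTCHD4 stood at 0.275, 0.294 and 0.125 CPM, and the Hedgehog receptor PTCH1 did not pass in either clone. SHH, the Hedgehog ligand, fell in clone 2 from 5.18 ± 0.442 to 0.942 ± 0.286 CPM (SD, n = 3; log2 fold change -2.43, SE 0.32, edgeR adjusted p = 0.000386). In clone 1 it stood at 10.1 ± 2.95 CPM (edgeR adjusted p = 0.0513, and 0.0164 with the replicate block). BOC, a Hedgehog co-receptor, fell in clone 2 (-0.96, SE 0.19, adjusted p = 0.00892), and GLI3, a transcription factor of the pathway, rose there (0.62, SE 0.17, adjusted p = 0.0442). Both were chosen after their values were seen. BOC in clone 1 stood at 11.4 ± 1.54 CPM against 17.7 ± 2.36 in wild type (SD, n = 3). It did not pass there (edgeR adjusted p = 0.0592, and 0.0237 with the replicate block).

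The BOC call ended on removal of wild-type replicate 2 or clone 2 replicate 3 (edgeR adjusted p up to 0.0557), and the GLI3 call on removal of any 1 library other than wild-type replicate 3 and clone 2 replicate 1 (up to 0.202) and in a fit of the 6 libraries compared (0.0935). Both clone 2 calls were kept with the replicate block (edgeR adjusted p = 0.00110 for BOC and 0.00583 for GLI3). SUFU, which restrains GLI factors, fell in clone 1 (log2 fold change -0.59, SE 0.16, adjusted p = 0.0374), a call ended on removal of wild-type replicate 2 or 3, any 1 clone 1 library or clone 2 replicate 2 (up to 0.172). In clone 2 SUFU (0.52, adjusted p = 0.0544) and HHIP, a decoy of Hedgehog ligands (0.78, 0.0730), did not pass, and with the replicate number as a block they did (0.0109 and 0.000356).

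Of the postsynaptic genes around CNKSR2, 20 of 22 were tested; none was called in clone 1 (median -0.12; 6 at an unadjusted p under 0.05 and 1 by DESeq2), and 1 rose and 0 fell in clone 2 (median -0.07; 1 and 1 with the replicate block). The paralogs CNKSR1, at 1.56 ± 0.655, 3.03 ± 0.267 and 1.29 ± 0.809 CPM, and CNKSR3, at 11.2 ± 2.86, 7.42 ± 1.08 and 12.7 ± 3.87 (SD, n = 3 each), did not pass against wild type. DLGAP4, a scaffold of the same density, rose in clone 2 (log2 fold change 0.54, SE 0.14, edgeR adjusted p = 0.0328), a call ended on removal of wild-type replicate 1 or 2, clone 1 replicate 2 or clone 2 replicate 3 (up to 0.168) and in a fit of the 6 libraries compared (0.0792). The replicate block kept it (edgeR adjusted p = 0.00484).

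Markers of neurons, muscle, blood and vessels were looked at beside these genes, and their part in the results was not tested. DCX and INA, neuronal markers, had no count in any library, and STMN2 and GAP43 summed to 0 and 4 counts in wild type; of 12 neuronal markers 3 were tested and edgeR called none in either clone (0 in clone 1 and 1 in clone 2 at an unadjusted p under 0.05, and 0 by DESeq2). Their summed level ran from 6.56 to 8.76 CPM in wild type, 4.20 to 8.97 in clone 1 and 2.97 to 6.98 in clone 2, most of it MAP2. Of the 13 skeletal muscle markers, TNNI1, TNNT3 and MYOG had no count, and TNNT1 gave 80.0, 84.9 and 87.6 CPM of a summed level that ran from 70.8 to 123 CPM in wild type, 89.9 to 127 in clone 1 and 88.1 to 108 in clone 2. Of the 5 muscle markers tested, 0 rose and 1 fell in clone 1 (median 0.08), and edgeR called none in clone 2 (median -0.32; 0 at an unadjusted p under 0.05 and 0 by DESeq2). MYH8, a perinatal myosin, fell in clone 1 from 2.63 ± 0.915 to 0.0928 ± 0.161 CPM (SD, n = 3; log2 fold change -4.82, SE 0.84, edgeR adjusted p = 0.00396). In the other direction MYH3, an embryonic myosin, stood at 15.7 ± 3.20 CPM in clone 1 against 9.33 ± 3.11 in wild type (edgeR adjusted p = 0.0896, and 0.0208 with the replicate block). TTN, titin, stood at 7.46 ± 1.28 against 4.27 ± 0.748 (0.138), and ACTA1, skeletal actin, had 4, 29 and 5 counts in the 3 groups. Of the leukocyte markers CD3E had no count, and CD14 fell in clone 2 (log2 fold change -2.93, SE 0.58, adjusted p = 0.00938; 0.0912 without wild-type replicate 2 and 0.00121 with the replicate block). The summed endothelial markers ran from 4.23 to 5.04 CPM in wild type, 4.47 to 6.46 in clone 1 and 3.65 to 4.12 in clone 2.

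Of the 10 genes, 4 lie on the X chromosome (PCSK1N, PTCHD1, DMD and CNKSR2), where 3.29% of all tested genes lie. Their patterns differed: PCSK1N and PTCHD1 were lost in clone 1, DMD in clone 2, and CNKSR2 in neither. Of the 552 other X-linked genes tested, 43 rose and 34 fell in clone 1 and 22 rose and 32 fell in clone 2 (edgeR, adjusted p under 0.05), with median log2 fold changes of -0.01 and 0.04. That is 13.9% called in clone 1 (7.79% higher and 6.16% lower) and 9.78% in clone 2 (3.99% higher and 5.8% lower), above the 5.51% and 5.96% of all tested genes, and no set test was run.

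Few of the genes beside the members were called, at shares close to those of all tested genes. Within 1 Mb of a member 100 other genes were tested; 2 were higher and 2 lower in clone 1 (median log2 fold change -0.12), and 2 were higher and 4 lower in clone 2 (median -0.01), where 5.51% and 5.96% of all tested genes were called. With the replicate number as a block 10 and 17 were called, where 13.7% and 16% of all tested genes were. Beside PCSK1N, HDAC6 lies 6112 bases away and stood at 55.3 ± 8.07 CPM in clone 1 against 48.7 ± 10.3 in wild type (SD, n = 3; edgeR adjusted p = 0.652), and TIMM17B on the other side at 37.5 ± 3.67 against 41.2 ± 2.39 (0.610). The nearest tested genes on either side of DMD were TAB3 at 122593 bases and PRRG1 at 4009834 bases. In clone 2 TAB3 stood at 25.6 ± 5.40 CPM against 29.5 ± 3.56 in wild type (0.532) and PRRG1 at 5.67 ± 1.19 against 9.61 ± 1.04 (0.0561, and 0.0191 with the replicate block). FBXL4, 29068 bases from POU3F2, stood at 39.5, 39.5 and 39.1 CPM in the 3 groups. XKR9, 407062 bases from EYA1, stood at 4.78 ± 1.05, 3.54 ± 1.40 and 3.79 ± 1.01 CPM (SD, n = 3 each).

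Some neighbours did move. MUC19, 121610 bases from CNTN1, had the same order as CNTN1, with 4, 16 and 2 counts in the wild-type libraries, 0, 0 and 0 in clone 1 and 10, 39 and 16 in clone 2. It did not pass in clone 1 (edgeR adjusted p = 0.0535, and 0.0221 with the replicate block) or clone 2 (0.219) against wild type. SMPX, a small muscle protein 51277 bases from CNKSR2, went the other way from CNKSR2 in clone 2, with 36, 24 and 1 counts in the 3 groups (adjusted p = 0.0263; 32.5-fold lower, counting interval 5.47 to 1319). That call ended on removal of wild-type replicate 1 or 2 or clone 2 replicate 2 or 3 (up to 0.143) and was kept with the replicate block (edgeR adjusted p = 0.0163).

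The 4 neighbours called in clone 1 were chosen for naming after their values were seen, as were DDX53 and SAT1. SSX1, near PCSK1N, fell from 0.598 CPM in wild type to 0 (edgeR adjusted p = 0.00405) and rose in clone 2 to 5.88 CPM (0.00134), the same order as PCSK1N. GPKOW, also near PCSK1N, fell in clone 1 (log2 fold change -0.84, adjusted p = 0.0167) and rose in clone 2 (0.64, adjusted p = 0.0447). The first GPKOW call ended on removal of wild-type replicate 2 or 3 or any 1 clone 1 library (up to 0.109), and the second on removal of any 1 library other than wild-type replicate 3 and clone 2 replicate 1 (up to 0.215), with RLE size factors and in a fit of the 6 libraries compared (up to 0.0882). The clone 2 call of GPKOW was kept with the replicate block (edgeR adjusted p = 0.00840). PNISR, near POU3F2, rose in clone 1 by 0.63 (0.0487; ended on removal of wild-type replicate 2 or 3 or any 1 clone 1 library, up to 0.215).

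MAGEB2, a cancer-testis gene near DMD, rose in clone 1 from 2.14 ± 0.215 to 44.3 ± 5.98 CPM (SD, n = 3; log2 fold change 4.36, edgeR adjusted p = 1.73e-08) and fell to 0 counts in clone 2 (3.32e-06). Both SSX1 and MAGEB2 belong to families of related genes. The multi-mapping setting of the counting was not given, and whether they share reads with their relatives was not tested. Near PTCHD1, DDX53 fell in clone 2 from 5.35 ± 0.340 to 0.0323 ± 0.0559 CPM (-7.04, edgeR adjusted p = 2.96e-06). SAT1 also fell in clone 2 (-1.72, 0.00134), while PTCHD1 itself overlapped wild type there. In clone 1, where PTCHD1 was lost, every SAT1 library lay below wild type. SAT1 did not pass there (log2 fold change -0.85, edgeR adjusted p = 0.0528, and 0.00778 with the replicate block). DDX53 did not pass in clone 1 either (0.13, edgeR adjusted p = 0.848).

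**Figure D4:**
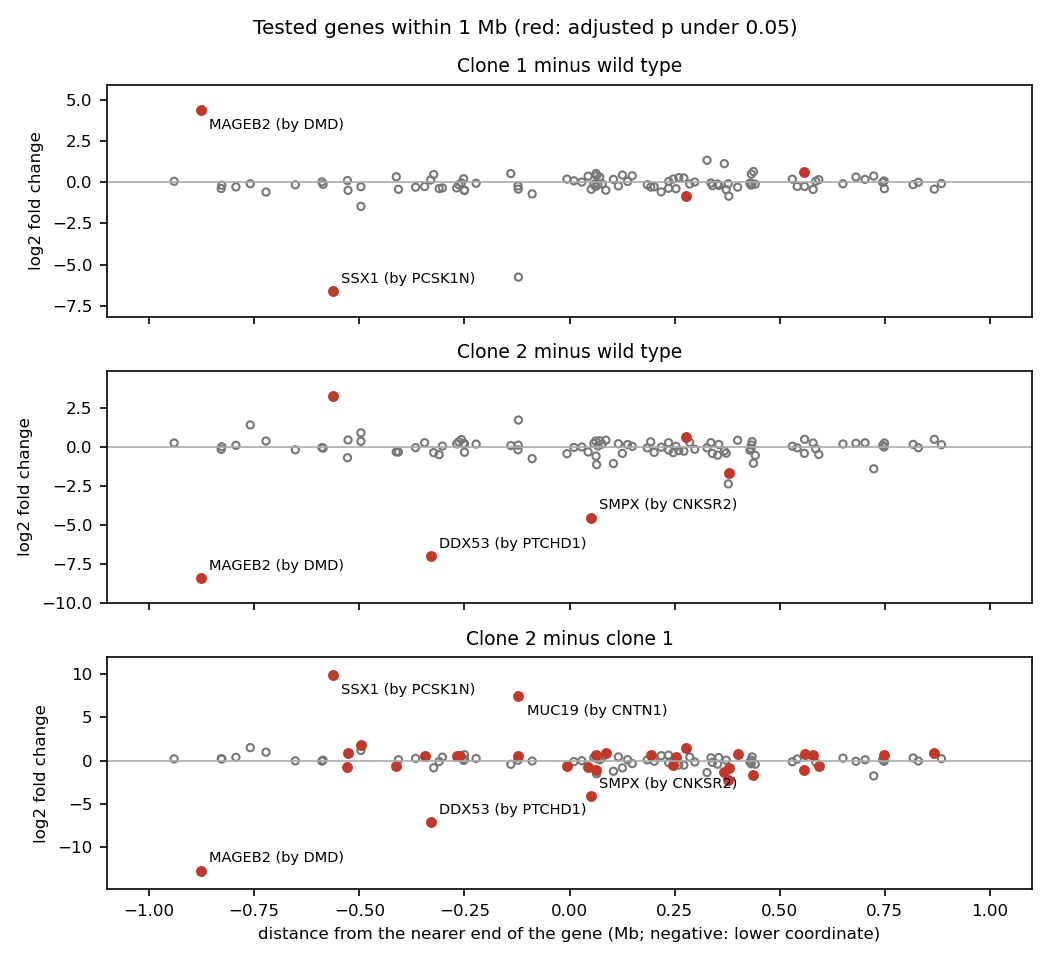
Fitted log2 fold change of the tested genes within 1 Mb of a member by distance in Mb from its nearer end, in panels for clone 1 against wild type, clone 2 against wild type and clone 2 against clone 1, with 1 point per gene and filled red points for those called at an adjusted p under 0.05. Most neighbours lie near 0 and called genes beyond 4 in either direction are labelled; those with a group at 0 counts have positions that depend on the prior count.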

How the data were processed

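The authors deposited whole-number read counts per gene, 1 table for each clone with the same 3 wild-type libraries. The submitters' processing notes name STAR, featureCounts (Subread), DESeq2 and GRCh38; strand and multi-mapping settings and the annotation release were not given in the sources used here. Counts were tested with edgeR 4.0.16 (limma 3.58.1, R 4.3.3) by the quasi-likelihood test on all 9 libraries, with TMM scaling and filterByExpr at a minimum count of 10. The test had 6 residual degrees of freedom, with two-sided Benjamini-Hochberg adjustment over 16921 genes, called under 0.05. Log2 CPM, used for the correlations, had a prior count of 2. The fitted log2 fold changes used the default prior count of edgeR, and remarks on their prior count refer to that default. DESeq2 1.42.0 was an alternative, and the fit was tested on simulated data. The p-values measure the spread between libraries, which may be technical. An SE given with a log2 fold change is the size of that change divided by the square root of the F statistic of the edgeR test. Intervals are 95% and cover counting error only, and folds against an empty group use a floor of 3 counts over the group.

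The members and lists were chosen with earlier results of these data known. Named by rule were the members, list paralogs, up to 3 called genes per list, overlapping and nearest genes, the 2 most correlated genes per member and identity markers; 12 others were chosen after their values were seen. Some genes of the lists are not reported here. Replicate numbers come from the labels. Same-numbered libraries deviated together for clone 2 and wild type (correlations 0.223, 0.269 and 0.246), which pairs them by the criterion used here (all over 0.1), but not for clone 1 and wild type (0.245, 0.0825 and -0.0965).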

Additional observations from a re-analysis of the deposited data

Results flagged for a closer look

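The clones differed from each other, by the edgeR quasi-likelihood test of the difference itself (adjusted p under 0.05 over all tested genes), at 44 of the genes named from the related lists, cell type markers and neighbours. The edited gene, the identity markers and the genes found by their likeness to a member are not counted here. Values are log2 of clone 2 over clone 1. Up to 3 genes per list were named for passing a test in any of the 3 comparisons, this one included. Others were chosen after their values were seen. The number 44 is therefore partly fixed by that choice and is not compared with the 33.9% of all tested genes that passed. Of all tested genes of the 9 related lists, 32.8% passed. Among granule genes the differences were DNAJC5 1.30, RAB27B -2.29 and STX1A -1.01. The adhesion genes gave NRCAM 1.47, CNTNAP2 1.35, CNTNAP1 -0.93 and CNTNAP3 -1.09, and the neural repressors REST 1.04 and RCOR1 0.85. GIPR, the class B receptor, gave -1.99. In the dystrophin complex DTNA 1.92, UTRN 0.63, SNTB2 0.50 and DRP2 -1.43 differed, and around MUSK ROR2 1.21, ABL1 0.80, CRKL 0.61, ROR1 0.44 and ACHE -0.99 did. For the partners of EYA1 the values were DACH1 1.35 and SIX2 0.88. Hedgehog genes gave HHIP 1.57, SUFU 1.12, GLI3 0.83 and SHH -3.40, and postsynaptic genes DLGAP4 0.91, CNKSR3 0.77 and SHANK1 -1.15. Of muscle markers MYH8 3.90, MYH3 -1.07 and TTN -1.14 differed, and CD14, a leukocyte marker, gave -1.74. Genes near a member gave SSX1 9.88, MUC19 7.46, GPKOW 1.48, RPS6KA3 0.70, TRAK1 0.48, HDAC6 -0.63, SAT1 -0.86, PRRG1 -1.001, PNISR -1.055, SMPX -4.12, DDX53 -7.17 and MAGEB2 -12.79. SSX1, MUC19 and MAGEB2 have 0 counts in a group, so their fitted values depend on the prior count. Of these 44 calls, 31 were kept whichever library was left out, and that of ROR1 also ended with RLE size factors, without the count filter and by DESeq2 (adjusted p up to 0.0720).

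PCSK1N and CNTN1 stood out because every clone 1 library lay below and every clone 2 library above wild type, with fitted values of 12.20 and 8.09. This difference was not tested, because the contrast chose the genes, and the PCSK1N value depends on the prior count.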

How the results depend on the processing

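Under the alternatives run, none of 339 member values changed direction where the groups did not overlap, and 4 of 104 did where they overlapped. Where groups do not overlap, leaving out 1 library cannot reverse the order of their means. The members were also chosen for their differences, so the first result was largely fixed in advance and nothing is read from it. By size 436 moved within their spread, and the 7 that did not were DESeq2 values of genes with a group at 0 counts and CNTN1 without clone 1 replicate 2. Counts of called genes did move, and the cause was not tested. Clone 1 against wild type had 933 called genes, with 1512 when no filter was used, 2322 with the replicate block, 1479 by DESeq2 and 200 to 1301 with 1 library left out. Clone 2 against wild type had 1008, with 1663 unfiltered, 2699 with the replicate block, 416 from the 6 libraries compared, 1818 by DESeq2 and 237 to 1584 with 1 library left out. Its 543 higher and 465 lower genes became 687 and 976 unfiltered and 160 and 256 from those 6 libraries. Clone 2 against clone 1 had 5733, and 3639 to 5782 with 1 library left out.

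Neighbours within 1 Mb called in clone 1 numbered 4 of 100, with 8 unfiltered, 10 with the block and 8 by DESeq2. The number was 0 of 33 within 0.25 Mb (5 at an unadjusted p under 0.05, edgeR), 9 of 257 within 3 Mb and 2 to 7 with 1 library left out. In clone 2 the 6 of 100 became 17 with the block, 1 of 33 within 0.25 Mb, 17 of 257 within 3 Mb and 4 to 11 with 1 library left out. Between the clones the 33 of 100 became 10 of 33 within 0.25 Mb and 79 of 257 within 3 Mb, where 33.9% of all tested genes were called. With 1 library left out the 33 became 17 to 32. For clone 1 the replicate numbers did not pair the libraries, so its block counts share only a number. There the block also called CNKSR3 (edgeR adjusted p = 0.0493), among other genes. In clone 2 the block also called ABL1 (edgeR adjusted p = 0.0411) and LPAR1 (0.0450), and beyond those given it changed no other call against wild type there among the named list, marker, overlapping and neighbouring genes. Of the calls of those genes, 6 of 17 in clone 1 and 7 of 18 in clone 2 were kept whichever library was left out. In a group with 0 counts over its 3 libraries, a level under the floor of 3 counts could not be told from absence.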
